A study of Mus musculus with 39 samples.

Results

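Microglia of 10-month-old female wild-type (WT) mice and female 5XFAD mice were compared after both genotypes had been kept under chronic intermittent hypoxia (CIH). The comparison set 5 libraries of WT CIH against 5 libraries of 5XFAD CIH, out of 39 libraries in the study. Its members were the genes with a CPM (counts scaled to a common library size) above 1 in at least 3 of these 10 libraries, which were 14911 of the 46333 genes in the female count table. The 5XFAD mice came from the B6SJL-Tg line crossed with C57BL/6J, carry mutant human transgenes that the neuronal Thy1 promoter drives, and form amyloid plaques. The WT mice carried no transgene. Both groups began CIH at 4 months of age and, according to the sample labels, breathed air that alternated between 6.5% and 21% oxygen in 90-s intervals for 8 h a day, whereas the study's methods state a lower minimum of oxygen and a longer daily exposure. Cells were collected from the cerebrum with magnetic beads against CD11b, a surface integrin that microglia share with other myeloid cells, and their RNA was sequenced in bulk. The question was how the genotypes differed in microglial gene expression when both had been exposed to CIH. Females kept in room air, or normoxia (NX), were 4 WT and 5 5XFAD libraries, and males of 8 months under CIH were 5 and 5, both used only for values set beside this comparison.

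Microglia are the resident phagocytes of the brain. In the healthy brain they hold a homeostatic program that includes the purine receptor P2ry12, the fractalkine receptor Cx3cr1 and the surface protein Tmem119, and that depends on TGF-beta. Around amyloid plaques they take on the disease-associated microglia (DAM) program, in which the receptor Trem2 and its adaptor Tyrobp act upstream of genes for phagocytosis, lysosomal breakdown and lipid transport. Type I interferon, antigen presentation, and a shift of energy metabolism under hypoxia-inducible factor are further programs that microglia can engage.

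Library totals ran from 15268978 to 20053296 counts, and no 2 libraries were copies of each other. The first principal component of log2 CPM held 59.0% of the variance and put the WT CIH libraries between −62.95 and −41.21 and the 5XFAD CIH libraries between 45.56 and 59.23. The second held 13.1% and ran from WT CIH 3 at −38.09 to WT CIH 1 at 51.46. The 12 markers of microglia were detected in all 10 libraries, with summed levels of 36860 to 42110 CPM in WT CIH and 36160 to 41190 CPM in 5XFAD CIH. These similar sums hold opposite changes. At an edgeR adjusted p under 0.05, 4 of the 12 were higher in 5XFAD CIH and 5 were lower (log2 fold changes from −1.22 to 1.24). Itgam, which encodes CD11b itself, had 1624 ± 113 CPM in WT CIH and 1692 ± 104 CPM in 5XFAD CIH (SD, n = 5 each, log2 fold change 0.06, edgeR adjusted p = 0.484). In bulk RNA, fewer cells of a type and less RNA per cell cannot be told apart, and this holds for every difference below.

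A gene was called a differentially expressed gene (DEG) when its false discovery rate (FDR) in edgeR's quasi-likelihood test was under 0.05 and its log2 fold change (log2FC, 5XFAD CIH over WT CIH) was beyond 1 in either direction. DEGs higher in 5XFAD CIH numbered 1317, or 8.83% of the genes tested, and DEGs lower in 5XFAD CIH numbered 615, or 4.12%. Every count of DEGs in a list below lies beside these shares. Of all calls, 68.17% were rises. This split depended on the scaling between libraries. With library size in place of TMM normalization, the numbers were 1024 and 995, 50.72% of calls were rises, and the median over all genes shifted from a log2FC of −0.02 to one of −0.21. On FPKM values with 0.1 added, limma gave 51.4% rises. The FDR alone passed 3906 genes that were higher (26.2%) and 3833 that were lower (25.7%). Rises were larger than falls, since 390 DEGs had a log2FC above 2 and 86 above 4, whereas 48 had one below −2 and 0 below −3. Every 5XFAD CIH library was above every WT CIH library for 2911 genes (19.5%) and below for 2799 (18.8%). Such separation was seen for 1141 of the higher DEGs and 533 of the lower DEGs. The higher DEGs together took 7.08 to 8.11% of the normalised counts in the WT CIH libraries and 19.67 to 23.65% in the 5XFAD CIH libraries. The lower DEGs took 3.54 to 3.72% and 1.13 to 1.55%. The 10 DEGs with the largest rise in mean CPM (no predicted models) alone took 2.38 to 2.75% and 7.48 to 9.21%.

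**Figure D1:**
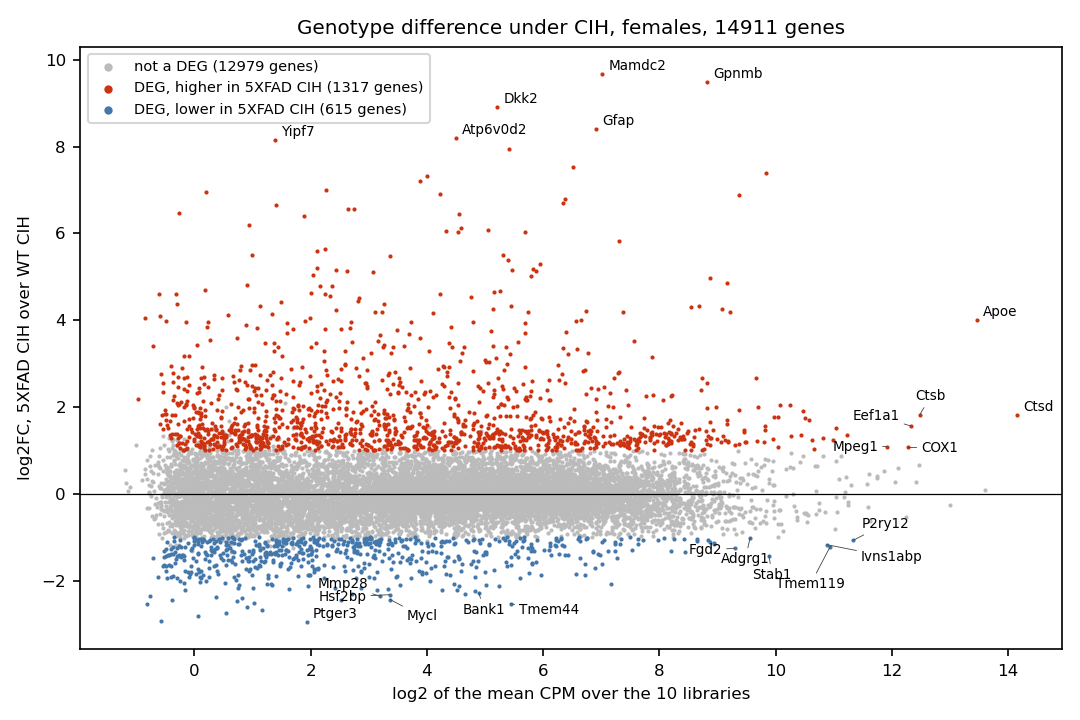
Each point is 1 of the 14911 genes, with the log2 of its mean CPM over the 10 libraries on the horizontal axis and its log2FC (5XFAD CIH over WT CIH) on the vertical axis. The 1317 higher DEGs reach 9.67 (Mamdc2) and the 615 lower DEGs reach −2.95 (Ptger3). The genes labelled are those with the largest log2FC in each direction and the largest change in CPM.

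The genes with the largest rises in log2FC were near zero in WT CIH. Mamdc2 had 0.0568, 0.12, 0.423, 0.36 and 0.568 CPM in the 5 WT CIH libraries and 278, 239, 202, 256 and 322 CPM in the 5 5XFAD CIH libraries (log2FC 9.67, SE 0.24, edgeR FDR 2.18e-11). Mamdc2 lies at chr19:23302609-23448497 (GRCm38.p6). Gpnmb at chr6:49036518-49058182, a transmembrane glycoprotein of lysosome-rich phagocytes, had 0.908, 1.99, 1.21, 0.925 and 1.29 CPM in WT CIH against 1010, 410, 1202, 1026 and 862 CPM (log2FC 9.48, SE 0.35). The second 5XFAD library was the lowest of its group for Gpnmb and was still far above every WT library. Dkk2 at chr3:132085266-132180304, a secreted regulator of Wnt signalling, had 0, 0.181, 0.363, 0.154 and 0.0517 CPM against 73.4, 55.6, 79.9, 85.3 and 74.1 CPM (log2FC 8.91, SE 0.26). Atp6v0d2 at chr4:19876838-19922566, a subunit of the vacuolar proton pump best known from osteoclasts, had 0.0568 to 0.206 CPM against 61.1, 26, 49.5, 45.2 and 43 CPM (log2FC 8.20, SE 0.32). Genes named here for the size of their log2FC were chosen among those without overlap and with a mean of at least 5 CPM in the higher group. Gfap at chr11:102887336-102897200, which encodes the intermediate filament of astrocytes, had 0.284, 0.422, 1.21, 0.257 and 1.34 CPM against 97.3, 407, 277, 190 and 234 CPM (log2FC 8.41, SE 0.48). The first 5XFAD library was lowest and the second highest for Gfap. Yipf7 had 1 count in the 5 WT CIH libraries together and 410 counts in the 5XFAD CIH libraries, a ratio of 455 with a counting interval of 81.3 to 18000 (95%).

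The largest falls were smaller than the largest rises. Ptger3 at chr3:157566821-157644758, a receptor for prostaglandin E2, had 8.23, 6.57, 7.01, 5.91 and 6.05 CPM in WT CIH and 0.589, 0.833, 0.962, 1.03 and 0.935 CPM in 5XFAD CIH (log2FC −2.95, SE 0.19, edgeR FDR 5.36e-08). Mycl, a transcription factor of the Myc family, was held within a narrow range in WT CIH, at 17.1 to 17.7 CPM, and had 3.01, 3.85, 2.52, 4.06 and 2.61 CPM in 5XFAD CIH (log2FC −2.44, SE 0.13). Bank1, a scaffold protein of B cell receptor signalling, had 45.8 to 53.3 CPM against 8.06 to 12.7 CPM (log2FC −2.28, SE 0.11). Tmem44 (log2FC −2.53), the secreted metalloproteinase Mmp28 (−2.36) and Hsf2bp (−2.32) fell by similar amounts. These 6 were chosen among DEGs whose groups do not overlap and whose WT mean is at least 5 CPM. The median level of the lower DEGs was 6.51 CPM in WT CIH, and that of the higher DEGs was 16.8 CPM in 5XFAD CIH.

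By change in CPM, a scale that favours long and abundant transcripts, the rises among DEGs were led by Ctsd, Apoe and Ctsb. The lysosomal aspartic protease Ctsd had 7400, 7595, 8360, 8837 and 8548 CPM in WT CIH and 30847, 26290, 26606, 28158 and 30824 CPM in 5XFAD CIH (log2FC 1.81, SE 0.08). Apoe, the main lipid carrier protein of the brain, had 1058, 1167, 1186, 1529 and 1724 CPM against 26095, 16500, 18439, 20025 and 25244 CPM (log2FC 4.00, SE 0.17). The cysteine protease Ctsb had 2298 to 2781 CPM against 7418 to 10228 CPM (log2FC 1.82). The translation elongation factor Eef1a1 (log2FC 1.56), the mitochondrially encoded oxidase subunit COX1 (1.07) and Mpeg1, a pore-forming protein of macrophages (1.09), followed. With library size scaling COX1 (0.87) and Mpeg1 (0.89) were no longer called. Among DEGs, the largest falls in CPM were those of 6 genes, while Cx3cr1 lost more CPM than 5 of them and Csf1r more than 3 without being DEGs. P2ry12 had 3691, 3356, 3358, 3793 and 3357 CPM in WT CIH and 1556, 1935, 1623, 1623 and 1626 CPM in 5XFAD CIH (log2FC −1.07, SE 0.07). Tmem119 had 2545 to 2978 CPM against 1006 to 1482 CPM (log2FC −1.22). Ivns1abp (−1.17), the scavenger receptor Stab1 (−1.43), the guanine nucleotide exchange factor Fgd2 (−1.25) and the adhesion receptor Adgrg1 (−1.02) also fell without overlap. The call of Adgrg1 was lost without 5XFAD CIH 1, where its log2FC was −0.99.

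**Figure D2:**
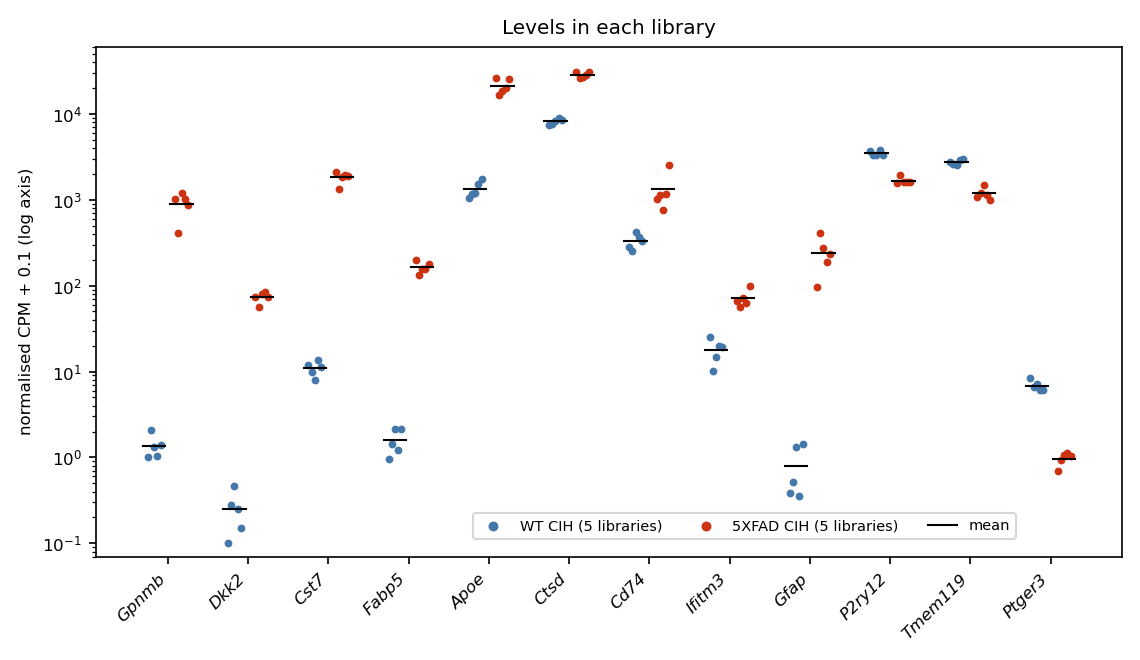
Normalised CPM plus 0.1 (log axis) of 12 genes in the 5 WT CIH and the 5 5XFAD CIH libraries, with a line at each group's mean. Gpnmb, Dkk2, Fabp5 and Gfap are near or below 2 CPM in WT CIH and far higher in 5XFAD CIH, while P2ry12, Tmem119 and Ptger3 are lower in every 5XFAD library.

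Among the receptors and surface proteins of the DAM program, 24 of 25 listed genes passed the filter on low counts, 16 were higher DEGs and 0 were lower DEGs (8.83% and 4.12% over all genes). Their median log2FC was 1.42, against −0.02 for all genes. The DAM program was itself defined in plaque-bearing mice. Itgax, the integrin known as CD11c, had 48.7, 33.6, 31.3, 38 and 39.8 CPM in WT CIH and 1301, 859, 1113, 1049 and 1208 CPM in 5XFAD CIH (log2FC 4.85, SE 0.15). Clec7a, the beta-glucan receptor dectin-1, had 29.4 to 40 CPM against 600 to 844 CPM (log2FC 4.31). Axl, a receptor tyrosine kinase for apoptotic cells, had 42.1 to 67.1 CPM against 907 to 1237 CPM (log2FC 4.25). Trem2 was already abundant in WT CIH, at 1278, 1147, 1068, 1242 and 1281 CPM, and had 3206, 2425, 2524, 2922 and 3177 CPM in 5XFAD CIH (log2FC 1.24, SE 0.09). Its adaptor Tyrobp had 392 to 520 CPM against 1267 to 2061 CPM (log2FC 1.76). The log2FC of both lay below those of Itgax, Clec7a and Axl. Members that were not DEGs included Fcgr2b (0.60) and Csf2ra (0.74), which passed the FDR alone, and Havcr2 (−0.01), Slamf8 (−0.13) and Ms4a7 (−0.24), which did not.

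The secreted factors of the DAM program included 17 higher DEGs and 1 lower DEG among 21 genes tested (of 22 listed) and a median log2FC of 2.67. Without WT CIH 1 the lower DEGs were 2. Cst7, an inhibitor of cysteine proteases, had 11.9, 9.7, 7.8, 13.4 and 11.3 CPM in WT CIH and 2088, 1344, 1835, 1938 and 1896 CPM in 5XFAD CIH (log2FC 7.39, SE 0.17). Spp1, or osteopontin, had 9.19, 8.86, 6.83, 17.9 and 11.6 CPM against 1375, 470, 2062, 1569 and 1060 CPM (log2FC 6.90, SE 0.41). Igf1, a growth factor, had 2.96 to 7.34 CPM against 249 to 372 CPM (log2FC 5.83). The second 5XFAD library was the lowest of its group for all of Gpnmb, Spp1 and Cst7, although it stayed clear of the WT libraries. Lipoprotein lipase, Lpl, had 25.9 to 36.3 CPM against 708 to 1135 CPM (log2FC 4.97). The scarce members Apoc4 and Wif1 had 7 and 4 counts over the WT CIH libraries and ratios of 91.7 (95% counting interval 44.2 to 229) and 84.2 (32.5 to 311). Angptl7 was the member that fell (log2FC −1.59), while Grn, the precursor of granulins (0.86), and Fn1 (0.99) passed the FDR only.

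Of 26 genes of lipid handling tested (27 listed), 11 were higher DEGs and 0 were lower DEGs, with a median log2FC of 0.71. The intracellular fatty acid carriers led. Fabp5 had 0.851, 1.33, 2.06, 1.13 and 2.02 CPM in WT CIH and 198, 133, 154, 155 and 179 CPM in 5XFAD CIH (log2FC 6.79, SE 0.18), and Fabp3 rose from 0.482 to 0.738 CPM to 33.8 to 49.4 CPM (log2FC 6.05). Ch25h, which makes 25-hydroxycholesterol, had 2.65 to 4.34 CPM against 71.3 to 120 CPM (log2FC 5.02). The lipid droplet proteins Plin2 (1.76) and Plin3 (1.07) and the ester-forming enzymes Dgat2 (1.98) and Soat1 (1.17) rose as well. The cholesterol exporters did not follow, since Abca1 had a log2FC of −0.28 and Abcg1 of 0.12, and their regulator Nr1h3 had −0.35.

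Genes of cholesterol and fatty acid synthesis were positive in 28 of 28 cases, with 20 higher DEGs and 0 lower DEGs and a median log2FC of 1.39. With library size scaling 26 were positive, 16 were higher DEGs and the median was 1.20. Acaca, which makes malonyl-CoA for fatty acid synthesis, had 8.06, 8.67, 17.2, 10.6 and 11.6 CPM in WT CIH and 153, 193, 166, 168 and 207 CPM in 5XFAD CIH (log2FC 3.99, SE 0.17). The desaturase Scd2 had 120 to 154 CPM against 383 to 491 CPM (log2FC 1.70), and its relative Scd1 had 1.02 to 5.38 CPM against 6.35 to 28.4 CPM (log2FC 2.73, SE 0.43). The transcription factors of the pathway, Srebf2 (1.55) and Srebf1 (1.02), and the enzymes Fasn (1.47), Sqle (1.52) and Cyp51 (1.86) were all DEGs. The groups did not overlap for any gene given here with its range.

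Of 41 lysosomal hydrolases and cathepsins tested (42 listed), 14 were higher DEGs and 1 was a lower DEG, with a median log2FC of 0.64. For this list and the other lysosomal lists below, the shares over all genes were 8.83% and 4.12%. By the FDR alone, 31 were higher and 5 were lower (26.2% and 25.7% over all genes). Ctse, an aspartic protease that is scarce in homeostatic microglia, had 1.59, 1.57, 0.786, 2.31 and 2.17 CPM in WT CIH and 102, 63.3, 64.4, 73.4 and 85.2 CPM in 5XFAD CIH (log2FC 5.50, SE 0.21). Gla, the alpha-galactosidase deficient in Fabry disease, had 6.47 to 8.47 CPM against 29.7 to 42.4 CPM (log2FC 2.34). Per gene length the list was led by Ctsd, with a mean of 9200 FPKM over the 10 libraries. Sgsh, an enzyme of heparan sulfate breakdown, was the member that fell (log2FC −1.49). The proton pump contributed 3 higher DEGs of 19 (median 0.51), which were Atp6v0d2, Atp6v0e2 (1.46) and the catalytic subunit Atp6v1a (1.30), while Atp6v0b had −0.16. Lysosomal membrane proteins gave 5 higher DEGs of 21 (median 0.44). Among them the tetraspanin Cd63 had 164 to 234 CPM against 627 to 1020 CPM (log2FC 2.00). The calcium channel Mcoln3 had 6 counts over the WT CIH libraries and 748 over the 5XFAD CIH libraries, a ratio of 138 (63.3 to 379), whereas its relative Mcoln1, the widely expressed lysosomal channel, had a log2FC of 0.06.

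The promoters of lysosomal genes are known to carry the letters CACGTG, which the transcription factors Tfeb and Tfe3 can bind. The 2 shown were picked by level among DEGs of the lysosomal lists whose window holds CACGTG. Its presence in them therefore followed from the choice. The windows run from 250 bases before to 50 after the start of transcription, 5′ to 3′ on the minus strand that carries both genes, from RefSeq on GRCm38.p6, with each CACGTG in capitals. Ctsd (chr7:142387778-142388077) held it at positions 6 and 153 of the window, and Ctsl (chr13:64370471-64370770) at position 15.
Ctsd: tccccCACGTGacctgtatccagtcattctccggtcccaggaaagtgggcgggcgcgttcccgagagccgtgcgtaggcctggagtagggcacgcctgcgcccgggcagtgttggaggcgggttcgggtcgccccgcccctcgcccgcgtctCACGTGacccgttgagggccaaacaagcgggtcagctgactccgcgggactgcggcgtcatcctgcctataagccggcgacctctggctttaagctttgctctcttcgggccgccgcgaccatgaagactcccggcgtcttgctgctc
Ctsl: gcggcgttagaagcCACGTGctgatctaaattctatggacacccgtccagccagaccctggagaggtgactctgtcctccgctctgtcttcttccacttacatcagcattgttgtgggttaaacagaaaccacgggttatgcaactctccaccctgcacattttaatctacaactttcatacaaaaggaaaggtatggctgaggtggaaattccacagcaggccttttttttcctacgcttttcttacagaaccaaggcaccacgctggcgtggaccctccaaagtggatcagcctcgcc
CACGTG reads the same on both strands. It occurred in 9 of the 17 higher DEGs of the 3 lysosomal lists that had a window (52.9%), in 20 of the 62 lysosomal genes with a window (32.3%), in 11.3% of all genes tested that had one, and in 7.15% of all 32851 windows. Over all higher DEGs the share was 11.2%, and over lower DEGs 10.0%. A match is a description of these letters and no measurement of binding. The transcripts of the factors themselves had a log2FC of −0.31 (Tfeb) and −0.38 (Tfe3), and that of their relative Mitf 0.57. Ctsl had 643, 618, 657, 759 and 682 CPM in WT CIH and 2555, 2090, 1839, 2259 and 2465 CPM in 5XFAD CIH (log2FC 1.74, SE 0.09), without overlap.

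Homeostatic genes were lower in 28 of 36 cases by the FDR (25.7% over all genes) and higher in 3. By the DEG rule 11 were lower and 1 was higher, with a median log2FC of −0.51 (12 lower DEGs and −0.70 with library size scaling). Falls were graded. The lens protein gene Crybb1 had 197, 241, 252, 240 and 233 CPM in WT CIH and 58.6, 54.6, 54, 62.6 and 47.6 CPM in 5XFAD CIH (log2FC −2.07, SE 0.08), and the orphan receptor Gpr165 had 29.6 to 48.9 CPM against 4.85 to 11.8 CPM (log2FC −2.21). The fructose transporter Slc2a5 had 591 to 658 CPM against 266 to 338 CPM (log2FC −1.06). Cx3cr1 had 5587, 5640, 5650, 6241 and 5702 CPM against 3788, 3945, 3882, 4141 and 4227 CPM (log2FC −0.53, SE 0.06), a small fall without overlap. The growth factor receptor Csf1r had 8412 to 9454 CPM against 6895 to 7863 CPM (log2FC −0.25). Siglech had −0.60, and P2ry13 fell from 1261 to 1548 CPM to 789 to 821 CPM (log2FC −0.85). Serpine2, an inhibitor of serine proteases, went the other way, from 446 to 517 CPM to 1350 to 1890 CPM (log2FC 1.77). Cst3, the most abundant homeostatic transcript per gene length, overlapped between the groups (log2FC 0.08, edgeR adjusted p = 0.55).

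Of 40 transcription factors tested (41 listed), 10 were higher DEGs and 1 was a lower DEG, with a median log2FC of −0.04. This median was 0.08 without WT CIH 3, 0.03 without 5XFAD CIH 1, −0.10 without 5XFAD CIH 2 and −0.23 with library size scaling. Bhlhe40, a repressor that is also part of the circadian clock, had 4.77, 4.64, 7.68, 5.04 and 5.74 CPM in WT CIH and 111, 97.3, 95.7, 87.9 and 114 CPM in 5XFAD CIH (log2FC 4.18, SE 0.13). Hif1a, the oxygen-labile subunit of hypoxia-inducible factor, had 144, 124, 124, 137 and 125 CPM against 766, 760, 756, 709 and 882 CPM (log2FC 2.57, SE 0.07). The retinoid receptor Rxrg (2.31), Runx2 (1.94) and Nfil3 (1.56) were also DEGs. Spi1, the lineage factor PU.1, had a log2FC of −0.17, Irf8 0.37 and Mef2c 0.21. Sall1, which marks microglia among macrophages, fell from 1265 to 1402 CPM to 736 to 900 CPM (log2FC −0.70), and Maf was the lower DEG (−1.11). In the TGF-beta pathway 2 of 26 genes tested (27 listed) were higher DEGs and 0 were lower DEGs, beside 8.83% and 4.12% over all genes. The median was −0.06 (1 lower DEG without WT CIH 1, a median of −0.25 with library size scaling, and one of −0.09 without 5XFAD CIH 3 and −0.04 to −0.02 without any of WT CIH 3 or 4 or 5XFAD CIH 1 or 4). The receptors parted, with Tgfbr2 at 0.78 and Tgfbr1 at −0.42. Bambi, a decoy receptor that blocks this pathway, had 1.4 to 2.41 CPM against 10.9 to 17 CPM (log2FC 2.85).

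**Figure D3:**
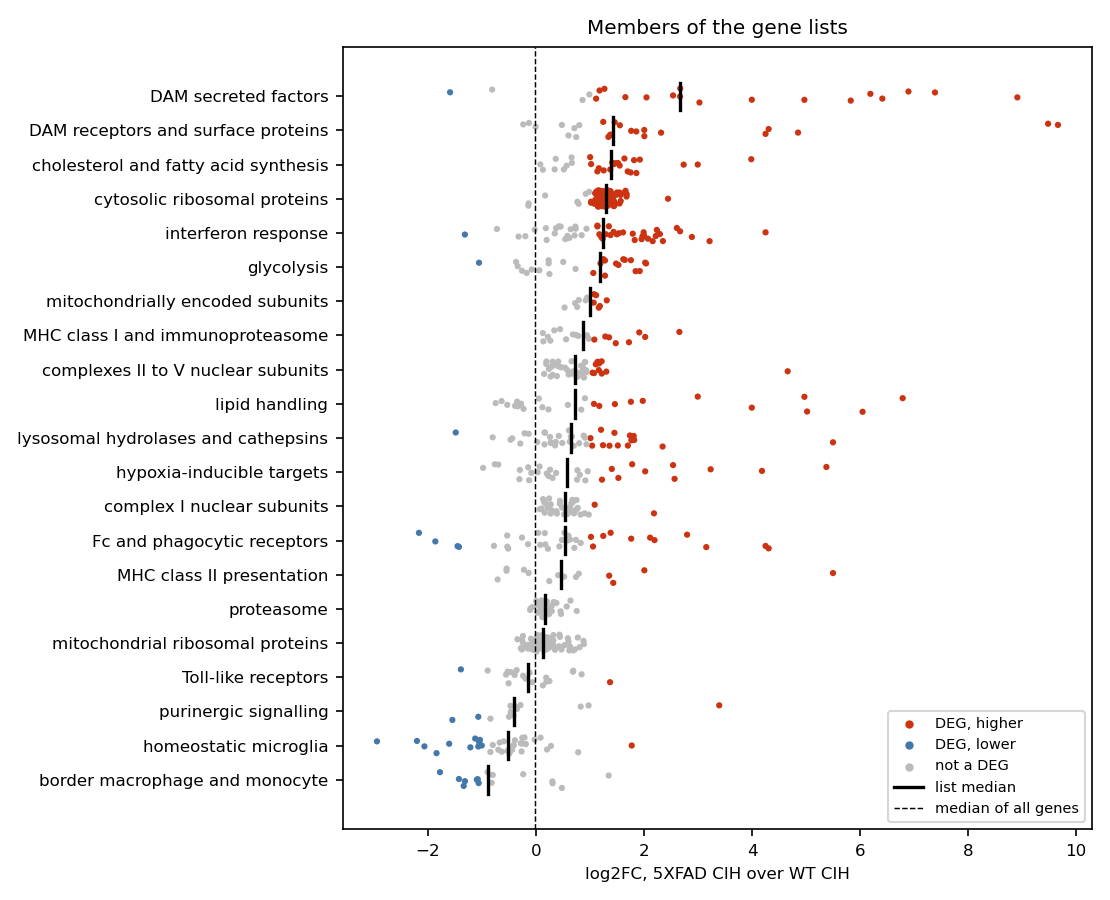
Each point is 1 tested gene of a list, placed by its log2FC (5XFAD CIH over WT CIH), with the list's median as a bar and the median of all genes (−0.02) as a dashed line. The DAM lists and cholesterol synthesis lie furthest to the right (medians 2.67, 1.42 and 1.39), and the homeostatic and border macrophage lists lie to the left (−0.51 and −0.90).

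Interferon response genes included 29 higher DEGs and 1 lower DEG among 49 tested (50 listed), with a median log2FC of 1.23. The largest rise in this list was that of Axl (4.25), which is also counted among the DAM receptors. In 24 of the 49 every 5XFAD library was above every WT library (19.5% over all genes), and in 3 every one was below (18.8%). The first WT CIH library stood apart from its group, with a mean log2 CPM over the list of 4.79, whereas the other 4 had 3.86 to 4.00 and the 5XFAD CIH libraries had 5.16 to 5.71. Ifi27l2a had 11.7, 5.3, 5.74, 9.25 and 9.77 CPM in WT CIH and 84, 64.5, 69.1, 77.8 and 95.1 CPM in 5XFAD CIH (log2FC 3.21, SE 0.19). Lgals3bp had 300, 176, 188, 237 and 209 CPM against 1297, 1279, 1473, 1230 and 1770 CPM (log2FC 2.67). Irf7, the regulator of interferon production, had 32.1, 12.5, 14, 12.3 and 10.5 CPM against 31.3, 38.7, 62.6, 32.6 and 54.8 CPM (log2FC 1.44, SE 0.30). WT CIH 1 was the library that overlapped for Irf7.

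Interferon target promoters are known to hold copies of GAAA set 2 bases apart, and 2 such promoters of genes that rose are shown, with each pair of GAAA spaced by 2 bases in capitals and the same window and source as above. Both lie on the minus strand. Bst2, or tetherin (chr8:71537423-71537722), held 2 overlapping copies from positions 121 and 127, and Ifitm3, which blocks viral entry (chr7:141010695-141010994), held 2 copies from positions 253 and 270.
Bst2: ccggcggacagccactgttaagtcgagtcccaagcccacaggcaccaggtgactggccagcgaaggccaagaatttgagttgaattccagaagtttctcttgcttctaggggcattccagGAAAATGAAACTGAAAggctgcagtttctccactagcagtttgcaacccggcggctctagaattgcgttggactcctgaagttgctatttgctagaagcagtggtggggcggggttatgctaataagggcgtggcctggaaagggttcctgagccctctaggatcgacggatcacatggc
Ifitm3: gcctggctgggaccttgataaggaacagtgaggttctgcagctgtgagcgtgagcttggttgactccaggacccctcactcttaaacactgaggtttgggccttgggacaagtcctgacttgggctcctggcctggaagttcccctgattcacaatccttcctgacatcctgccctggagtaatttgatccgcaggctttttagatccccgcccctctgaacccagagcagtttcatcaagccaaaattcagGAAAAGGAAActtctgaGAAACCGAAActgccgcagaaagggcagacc
On either strand, such a pair was found in 12 of the 22 higher DEGs of the interferon list that had a window (54.5%) and in 21 of the 39 listed genes with a window (53.8%). The share was 3.88% over all genes tested and 3.44% over all windows, 5.68% over all higher DEGs and 5.24% over lower DEGs. Bst2 had 61 to 88.1 CPM in WT CIH and 134 to 206 CPM in 5XFAD CIH (log2FC 1.21, SE 0.12). Ifitm3 had 25.3, 9.94, 14.8, 19.7 and 19.3 CPM against 66.8, 55.8, 72.6, 62.4 and 98.7 CPM (log2FC 2.00, SE 0.21). The groups overlapped for neither gene, and WT CIH 1 was the highest WT library for both.

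Antigen presentation on MHC class I was positive in 20 of 20 genes, with 8 higher DEGs, 0 lower DEGs and a median log2FC of 0.86. With library size scaling 18 were positive, 7 were higher DEGs and the median was 0.66. H2-D1, a classical heavy chain, had 657, 508, 532, 642 and 629 CPM in WT CIH and 2214, 1977, 1914, 1978 and 3085 CPM in 5XFAD CIH (log2FC 1.91, SE 0.13). Its light chain B2m had 1197 to 1538 CPM against 2941 to 4146 CPM (log2FC 1.35). H2-Q7 (2.65) and H2-Q6 (2.02) are near-identical copies whose reads may have been shared, so their values are uncertain. Nlrc5, the transactivator of class I genes, was a DEG (1.72), while the peptide transporter genes Tap1 (0.74) and Tap2 (0.14) were not. For MHC class II, 4 of 14 genes were higher DEGs and 0 were lower DEGs (median 0.46, or 0.31 without 5XFAD CIH 5). The largest rise in this list was that of Ctse (5.50), which is also counted among the lysosomal cathepsins. The invariant chain Cd74 had 279, 251, 417, 373 and 333 CPM against 1010, 1148, 756, 1156 and 2566 CPM (log2FC 2.01, SE 0.28). H2-Aa had 86.9 to 149 CPM against 271, 296, 185, 289 and 673 CPM (log2FC 1.43). The fifth 5XFAD library was the highest for Cd74, H2-Aa and H2-D1. The class II transactivator Ciita had −0.22, and the costimulators Cd86 (−0.14) and Cd40 (−0.55) did not pass the FDR.

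Complement gave 3 higher DEGs and 1 lower DEG of 18 tested (19 listed, median 0.49), beside 8.83% and 4.12% over all genes. The largest rise in this list was that of Itgax (4.85), which is also counted among the DAM receptors. The count of higher DEGs was 5 when any of WT CIH 1 or 3 or 5XFAD CIH 1, 2 or 4 was left out, and that of lower DEGs was 0 without 5XFAD CIH 1 and 2 without 5XFAD CIH 3. C3, the central component, had 6.92, 4.88, 8.04, 5.81 and 4.6 CPM in WT CIH and 35.2, 64.2, 89.7, 50.4 and 80.4 CPM in 5XFAD CIH (log2FC 3.41, SE 0.25). The C1q chains, which tag synapses for removal, rose by less than the DEG limit, C1qa from 3128 to 3916 CPM to 4631 to 6000 CPM (log2FC 0.59) and C1qb by 0.52. Properdin, Cfp, was the lower DEG (−1.07). Chemokines and their receptors split, with 6 higher and 3 lower DEGs of 21 tested (22 listed, median 0.48). That median was 0.97 without WT CIH 1 and 0.27 to 0.32 without any of WT CIH 2, 3 or 5 or 5XFAD CIH 5. It was 0.28 with library size scaling and 0.16 after each library's trend on gene length was removed. Ccl3 had 37.7, 27.3, 53.3, 42.6 and 36 CPM against 231, 168, 166, 373 and 441 CPM (log2FC 2.81, SE 0.28). Cxcl14 (3.68) and the receptor Cxcr4 (2.83) rose, and the lower DEGs included the receptor Ccr2 (−1.08) and the ligand Ccl7 (−1.06). Ccl2, the main attractant of monocytes, overlapped (log2FC −0.28, edgeR adjusted p = 0.395).

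Of 24 cytokine and inflammasome genes tested (29 listed), 7 were higher and 2 were lower DEGs. Csf1, the growth factor on which microglia depend, had 43.2, 36.3, 45.8, 37.1 and 32.9 CPM in WT CIH and 787, 692, 695, 768 and 955 CPM in 5XFAD CIH (log2FC 4.32, SE 0.12). Tnf had 13.7 to 20.7 CPM against 20.4, 25.8, 36.4, 86.3 and 85 CPM (log2FC 1.62, SE 0.37), and Il1b had 20.5 to 35.4 CPM against 33.2, 58.5, 60.6, 122 and 117 CPM (log2FC 1.44, SE 0.30). Both overlapped between the groups, with the fourth and the fifth 5XFAD library highest. The inflammasome sensors Nlrc4 (−1.40) and Nlrp1b (−1.15) fell, Nlrp3 had 0.20, and Il6 fell by 0.96 on the log2 scale. The list's median was 0.17 and passed below 0 under library size scaling. Toll-like receptors had 1 higher DEG, Tlr2 (1.37), and 1 lower DEG, Tlr5 (−1.39), of 20 (median −0.16), beside 8.83% and 4.12% over all genes. By the FDR 5 were higher and 9 were lower (26.2% and 25.7% over all genes), the latter including the endotoxin receptor Tlr4, at 148 to 169 CPM against 109 to 118 CPM (log2FC −0.46).

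Fc and phagocytic receptors had 11 higher and 4 lower DEGs of 35 tested (37 listed, median 0.53). For this list and the purinergic and NADPH oxidase lists that follow, the shares over all genes were 8.83% and 4.12%. Besides Clec7a and Axl, the inhibitory receptor Lilrb4a rose from 43 to 54.8 CPM to 357 to 502 CPM (log2FC 3.15, SE 0.10), although this gene has a close copy. The inhibitory sialic acid receptors Siglecg (−2.17) and Siglece (−1.87) fell, and Cd33 had −0.78, whereas Siglecf rose (1.38). Of 14 purinergic genes tested (17 listed), 1 was a higher DEG and 2 were lower DEGs (median −0.40), and the higher DEGs were 2 without WT CIH 4 or 5XFAD CIH 2. The adenosine receptor Adora1 had 1.42 to 2.41 CPM against 15.7 to 26.7 CPM (log2FC 3.39), while P2ry12 and adenosine deaminase, Ada (−1.55), fell. In NADPH oxidase the catalytic subunit Cybb rose alone as a DEG of 8 tested (11 listed, log2FC 2.30), with 29.3 to 43.4 CPM against 148, 159, 147, 158 and 274 CPM.

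Both groups had been exposed to CIH, so hypoxia-responsive genes were compared between genotypes and not with room air. Glycolysis included 15 higher DEGs and 1 lower DEG of 27 tested, with a median log2FC of 1.19. Tpi1 had 64.8, 59.2, 60.4, 84.6 and 75 CPM in WT CIH and 256, 252, 250, 343 and 312 CPM in 5XFAD CIH (log2FC 2.04, SE 0.12). The ATP-forming enzymes Pgk1 (2.02) and Pkm (1.92), the aldolase Aldoa (1.62), lactate dehydrogenase Ldha (1.53) and the glucose transporter Slc2a1 (1.22) rose without overlap. The entry enzymes did not, since Hk2 had a log2FC of −0.08 and Hk1 of 0.06. Gapdh overlapped and has many processed copies in the genome, so its call (1.25) is uncertain.

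Of 30 hypoxia-inducible targets tested (32 listed), 10 were higher DEGs and 0 were lower DEGs (median 0.57), with 1 lower DEG without WT CIH 1, 5XFAD CIH 1 or 5XFAD CIH 3. The prolyl hydroxylase Egln3 had 2.1, 1.99, 1.51, 1.95 and 2.27 CPM against 67, 96.5, 83.4, 91.5 and 72.9 CPM (log2FC 5.38, SE 0.13), while its relative Egln1 had 44.7 to 51.8 CPM against 69.1 to 99 CPM (log2FC 0.77). Vegfa had 4.22 to 7.25 CPM against 23.8 to 49.8 CPM (log2FC 2.54). Other targets did not rise with these, as Pdk1 had 0.23, Kdm3a 0.03, Hilpda 0.07 and Ddit4 −0.76. Flt1, a receptor for Vegfa that endothelial cells express, had 3.01, 3.31, 23.5, 25.3 and 26.8 CPM against 138, 123, 184, 137 and 195 CPM (log2FC 3.23, SE 0.48). The first 2 WT libraries were low for Flt1 and were also low in the endothelial list, with means of 0.84 and 1.18 log2 CPM against 3.20 to 3.71 in the other 3. The part of endothelial RNA in Flt1 was not tested.

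Subunits of oxidative phosphorylation had a positive log2FC in every gene tested of the 3 lists, although with library size scaling 32 of 37 in complex I and 40 of 43 in complexes II to V did. Each of the 37 nuclear subunits of complex I was positive (0.07 to 2.18, median 0.55) and 28 were higher by the FDR (26.2% over all genes), while 2 were DEGs, Ndufa1 (2.18) and Ndufa2 (1.09), and the call of Ndufa2 was lost without 5XFAD CIH 1 (log2FC 0.93). All 43 nuclear subunits of complexes II to V tested (45 listed) were positive (0.15 to 4.66, median 0.73), with 10 higher DEGs (8.83% over all genes), which became 4 with library size scaling. Cox6a2, the isoform of heart and skeletal muscle, had 3.24, 2.71, 2.36, 2.88 and 2.33 CPM in WT CIH and 76, 52, 43.6, 101 and 70.1 CPM in 5XFAD CIH (log2FC 4.66, SE 0.23). The common subunit Cox4i1 had 93 to 128 CPM against 189 to 301 CPM (log2FC 1.16, or 0.96 and not called with library size scaling). Removing each library's trend of log2 CPM on gene length lowered the medians to 0.31 for complex I and 0.49 for complexes II to V, left 1 and 2 higher DEGs in them, and ended the call of Cox4i1 (0.86). All 12 mitochondrially encoded subunits tested were positive (median 1.01), with 6 higher DEGs, or 1 with library size scaling and 1 with the length trend removed. COX1 had 3148, 2879, 3014, 3480 and 3605 CPM against 6944, 5884, 5103, 8002 and 7872 CPM (log2FC 1.07, SE 0.12). Mitochondrial genes have nuclear copies, which can share reads.

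Cytosolic ribosomal protein genes were the list with the most DEGs, with 79 higher and 0 lower of 86 tested (90 listed) and a median log2FC of 1.30. The count was 59 and the median 1.10 with library size scaling, and 50 were higher DEGs with the length trend removed, which ended the call of Rplp1 (0.85). Rplp1, the most abundant per gene length, had 510, 457, 399, 539 and 548 CPM in WT CIH and 1381, 946, 851, 1271 and 1268 CPM in 5XFAD CIH (log2FC 1.22, SE 0.13). The 5XFAD libraries themselves differed, as the list's mean log2 CPM was 8.46 in 5XFAD CIH 1 and 7.63 in 5XFAD CIH 3, against 6.70 to 7.04 in WT CIH. These genes have many processed copies, which makes single values uncertain. Mitochondrial ribosomal proteins did not rise with them, with 0 DEGs of 77 in either direction (21 higher and 4 lower by the FDR, beside 26.2% and 25.7% over all genes) and a median of 0.12. The proteasome had 0 DEGs of 31 (12 higher and 0 lower by the FDR) and a median of 0.17. Both of these medians were below 0 with library size scaling.

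Counts of DEGs in the stress and iron lists were small and lay beside shares of 8.83% higher and 4.12% lower over all genes. Of 22 antioxidant genes tested (23 listed), 3 were higher DEGs and 0 were lower DEGs, namely the peroxiredoxins Prdx6 (1.42) and Prdx1 (1.17) and the sulfiredoxin Srxn1 (1.03), the last of which lost its call without WT CIH 1 (log2FC 0.95), WT CIH 3 (0.99) or 5XFAD CIH 4 (0.98). With library size scaling only Prdx6 was called, Prdx1 had 0.97 and Srxn1 0.83, and the median of the list was 0.22 in place of 0.42. Nfe2l2, the regulator of this response, had 0.42 and Hmox1 0.86. Both chains of ferritin rose, Fth1 from 664 to 775 CPM to 2006 to 2641 CPM (log2FC 1.71) and Ftl1 by 1.28 on the log2 scale. The iron exporter Slc40a1 fell from 212, 232, 218, 249 and 232 CPM to 75.6, 89.2, 87, 79.3 and 78.9 CPM (log2FC −1.48, SE 0.06). In all, 2 of 15 iron genes tested (17 listed) rose as DEGs and 2 fell (median 0.22, or 0.03 with library size scaling and 0.14 without WT CIH 1). The unfolded protein and heat shock list had 2 higher DEGs and 0 lower DEGs of 28 tested (29 listed, median 0.28, or 0.08 with library size scaling), Trib3 (2.41) and Sdf2l1 (1.38), while the heat shock gene Hspa1a had −0.40. Cell cycle genes gave 6 higher DEGs and 0 lower DEGs of 35 (median 0.56). The inhibitor Cdkn2a had 0.397 to 0.925 CPM against 2.24 to 5.7 CPM (log2FC 2.74), and the kinase Cdk1 had 2.6 to 4.03 CPM against 7.39 to 12.8 CPM (log2FC 1.66). Mki67, a marker of dividing cells, had 10.4 to 18.5 CPM against 18.6 to 25.6 CPM (log2FC 0.70).

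Immediate early genes, which can respond to cell isolation, had 5 higher DEGs and 0 lower DEGs of 29 (8.83% and 4.12% over all genes), with a median of 0.12. Fos (−0.03), Egr1 (−0.19) and Jun (−0.28) did not pass the FDR. The median had no stable sign, as it was −0.01 without 5XFAD CIH 2, 0.39 without WT CIH 3 and −0.08 with library size scaling, and 0.06 to 0.08 without any of WT CIH 1, 2 or 5. Without 5XFAD CIH 2 there was also 1 lower DEG. Their mean level set single libraries apart, at 7.16 in WT CIH 3 against 5.86 to 6.18 in the other WT libraries, and at 5.70 in 5XFAD CIH 1 against 6.65 to 6.95 in the other 5XFAD libraries. Of 16 clock genes tested (17 listed), Bhlhe40 was the higher and Hlf the lower DEG. The lower DEGs were 2 without WT CIH 3, 3 without 5XFAD CIH 3 and 3 with library size scaling. Hlf had 31.5, 37.8, 29.6, 27.6 and 30.7 CPM against 5.96, 7.39, 9.2, 6.4 and 4.94 CPM (log2FC −2.21, SE 0.14). Per2 (−0.89), Per3 (−0.86) and Tef (−0.77) passed the FDR, and Clock (−0.12) and Arntl (−0.12) did not. The time of day of collection was not analysed here.

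Solute carriers of the plasma membrane had 19 higher and 16 lower DEGs of 191 tested (317 listed), beside 8.83% and 4.12% over all genes, and a median of 0.03. With library size scaling the counts were 16 and 19 and the median −0.16, and without single libraries the median was 0.01 to 0.05. The glucose transporter Slc2a6 had 3.81 to 6.36 CPM against 23.2 to 41.6 CPM (log2FC 2.92). Mitochondrial carriers had 4 higher DEGs and 1 lower DEG of 40 tested (47 listed), led by the calcium-regulated ATP carrier Slc25a25 (1.46), and their median of 0.07 turned negative with library size scaling. C2H2 zinc finger genes, mostly transcriptional repressors, moved by small amounts. Of 352 tested (415 listed), 212 were lower and 16 were higher by the FDR (25.7% and 26.2% over all genes), the median was −0.33, and 5 were higher DEGs and 5 were lower DEGs. The lower DEGs became 8 without 5XFAD CIH 2 and 3 without 5XFAD CIH 5. With library size scaling 4 were higher and 13 were lower DEGs, and the median was −0.52. Their summed level was 11180 to 12450 CPM in WT CIH and 9388 to 10100 CPM in 5XFAD CIH, without overlap.

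**Figure D4:**
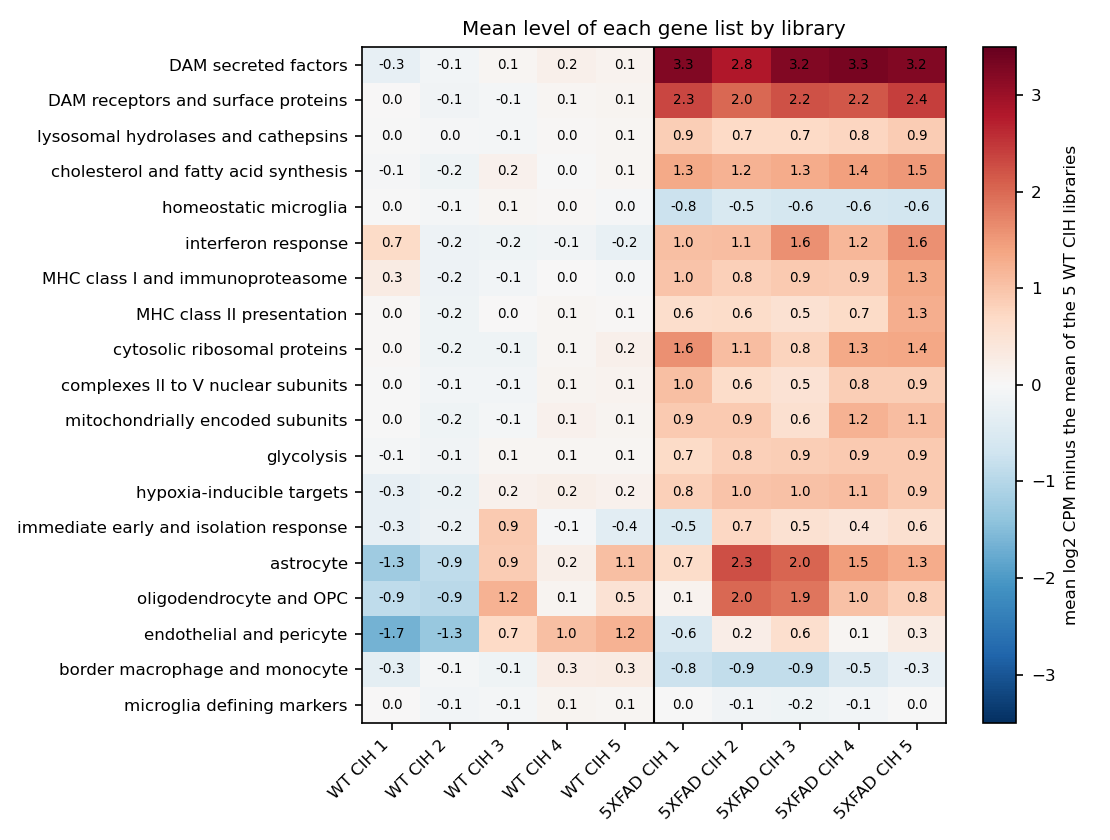
Mean log2 CPM of each gene list in each of the 10 libraries, minus the mean of the 5 WT CIH libraries, in red where higher and blue where lower. The DAM, cholesterol and ribosomal lists are high in every 5XFAD CIH library, the interferon list is also raised in WT CIH 1, and the endothelial list is low in WT CIH 1 and WT CIH 2.

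Markers of other cells that the bead selection could carry along were measured in full. Of 15 astrocyte markers, 5 were higher DEGs and 0 were lower DEGs (median 0.54), with summed levels of 175.3 to 304.7 CPM in WT CIH and 283.1 to 791.6 CPM in 5XFAD CIH. The median was 0.29 without WT CIH 1, 0.32 without WT CIH 2, 0.34 without 5XFAD CIH 2 and 0.94 without WT CIH 5. Gfap made up much of that gain. S100b had 0.227, 0.12, 1.39, 0.617 and 0.62 CPM against 4.65, 23.9, 15.9, 12 and 11.7 CPM (log2FC 4.51, SE 0.51). The glutamate transporter Slc1a2 overlapped, at 1.93, 2.47, 14.9, 9.51 and 19.2 CPM against 14.8, 94.4, 67, 55.7 and 53.2 CPM (log2FC 2.56). The water channel Aqp4 (0.92), Gja1 (−0.37) and Slc1a3 (−0.60) were not DEGs. The second 5XFAD library, lowest for Gpnmb and Spp1, was the highest for Gfap, S100b and Slc1a2. The part of astrocyte RNA in these values was not tested.

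Of 12 oligodendrocyte and precursor markers tested (15 listed), 2 were higher DEGs and 0 were lower DEGs (median 0.83), beside 8.83% and 4.12% over all genes. Their summed levels were 147.7 to 334.2 CPM in WT CIH and 315.2 to 577.7 CPM in 5XFAD CIH. Mbp, a myelin protein, had 49.7, 42.2, 115, 52.6 and 53.1 CPM against 116, 208, 170, 139 and 154 CPM (log2FC 1.33). Cspg4, or NG2, had 0.738 to 5.84 CPM against 83.3 to 147 CPM (log2FC 5.18), while Pdgfra, the other marker of precursors, had 0.15. The higher DEGs became 4 and the median 1.34 without WT CIH 3, the highest WT library for Mbp. Mog, Olig2 and Opalin did not pass the filter on low counts. Among neuronal markers 3 of 14 tested (19 listed) were higher DEGs and 1 was a lower DEG, and these 4 DEGs reached at most 14.4 CPM in any library. The lower DEG, Snap25 (−1.13, edgeR adjusted p = 0.0493), lost its call without any of 7 single libraries (WT CIH 1, 2 or 5, or 5XFAD CIH 1, 3, 4 or 5) and with the replicate block. Map2 (1.41) and Meg3 (1.34) overlapped between the groups, and each lost its call when single libraries were left out, with an edgeR adjusted p of 0.106 for Map2 without 5XFAD CIH 2 and of 0.0745 for Meg3 without 5XFAD CIH 3. Thy1 was among them (log2FC 2.08), and since the transgenes carry Thy1 promoter sequence, whether its reads came from the transgenes was not tested.

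Among 15 border macrophage and monocyte markers, 7 were lower DEGs and 0 were higher DEGs, 4 had a positive log2FC, and the median was −0.90. Without 5XFAD CIH 1 or 3 there was 1 higher DEG. Their summed level was 1345 to 1866 CPM in WT CIH and 579.8 to 848.9 CPM in 5XFAD CIH. Most of that sum was Stab1, which is not limited to these cells. Lyve1 had 5.11, 8.67, 8.28, 11.4 and 13.4 CPM against 2.69, 2.34, 3.01, 2.62 and 3.01 CPM (log2FC −1.78, SE 0.23), and Cd163 had 17.5 to 32.1 CPM against 5.52 to 12 CPM (log2FC −1.34). The mannose receptor Mrc1 had 72 to 148 CPM against 35.9 to 66.9 CPM (log2FC −1.10). Of 15 endothelial and pericyte markers tested (16 listed), 1 was a higher DEG, Flt1, and 2 were lower DEGs, Pecam1 (−1.79) and Pdgfrb (−1.07), while Cldn5 had −0.51. The call of Pdgfrb was lost without any of 5 single libraries, with an edgeR adjusted p of up to 0.0913 without WT CIH 5. It was also lost with the replicate block (edgeR adjusted p = 0.0594). Neutrophil (11 of 14 listed), lymphocyte (7 of 16) and erythroid (5 of 7) markers had 0 DEGs, with 4, 1 and 0 genes lower and 0 higher by the FDR (25.7% and 26.2% over all genes). These counts of 0 depended on the processing and on single libraries. With library size scaling 1 neutrophil and 1 lymphocyte gene were lower DEGs, and with the length trend removed 4 and 1 were. Without 5XFAD CIH 2, 4 neutrophil genes were lower DEGs, and without WT CIH 4, 1 was. Without WT CIH 3, 2 erythroid genes were lower DEGs. In the lymphocyte list 1 gene was a lower DEG without any of WT CIH 2 or 3 or 5XFAD CIH 1 or 4, and 1 was a higher DEG without 5XFAD CIH 3. The defining T cell genes Cd3e, Cd3d and Cd3g did not pass the filter on low counts. Of 6 choroid plexus markers tested (8 listed), Ttr (−1.35) and Kl (−1.21) were lower DEGs, both with overlap. Without WT CIH 3 neither was called (edgeR adjusted p = 0.0664 for Ttr and 0.0627 for Kl), and the count of lower DEGs in this list was 5 without WT CIH 1, 4 without 5XFAD CIH 3, 1 without 5XFAD CIH 5 and 0 without 5XFAD CIH 4.

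The same genotypes were sequenced in room air, in other libraries. The median log2FC of the DAM secreted factors was 2.67 under CIH and 1.02 under NX, that of cytosolic ribosomal proteins was 1.30 and 0.94, and that of complexes II to V was 0.73 and 0.40. Single NX libraries went against their groups. The library labelled F 5XFAD NX 4 had 1.178 CPM of Gpnmb, 16.43 CPM of Cst7 and 769.5 CPM of Apoe, levels of the WT groups. Without it the NX medians were 1.33, 1.13 and 0.55. The library labelled F WT NX 1 had 762.2 CPM of Gpnmb, 2569 CPM of Spp1 and 92.82 CPM of Fabp5, against 0.9996 to 1.488, 8.007 to 21.71 and 1.055 to 1.393 CPM in the other WT NX libraries, but 17.31 CPM of Cst7 and 0.442 CPM of Gfap. With all NX libraries the log2FC of Gpnmb was 2.30, and without F WT NX 1 it was 9.63, beside 9.48 under CIH. The NX median of the DAM secreted factors was 1.86 without F WT NX 1 and 2.40 without both of these libraries, beside 2.67 under CIH, and those of cytosolic ribosomal proteins and complexes II to V were 1.17 and 0.60 without both. Of the 47 lists, 37 had a higher median under CIH than under NX, or 31 without both libraries. Lists that went the other way included interferon response (1.23 under CIH, 1.38 under NX and 1.70 under NX without both), and, without both, DAM receptors (1.42 and 1.62), MHC class I (0.86 and 1.01) and lysosomal hydrolases (0.64 and 0.71). No WT CIH library showed such levels. Whether the genotype difference depended on treatment was tested as an interaction across the 4 female groups, and 0 of 15582 genes passed an FDR of 0.05 (0.0%), with 589 at an unadjusted p under 0.05. DESeq2 also called 0, with 663 at an unadjusted p under 0.05. The lowest FDR was 0.952, and no fit of the interaction left out both F WT NX 1 and F 5XFAD NX 4. Gpnmb had an interaction p of 0.00455 in edgeR (FDR 0.952), and without F WT NX 1 its p was 0.917. Therefore no gene's genotype difference was shown to depend on CIH, which does not show that the differences were equal.

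**Figure D5:**
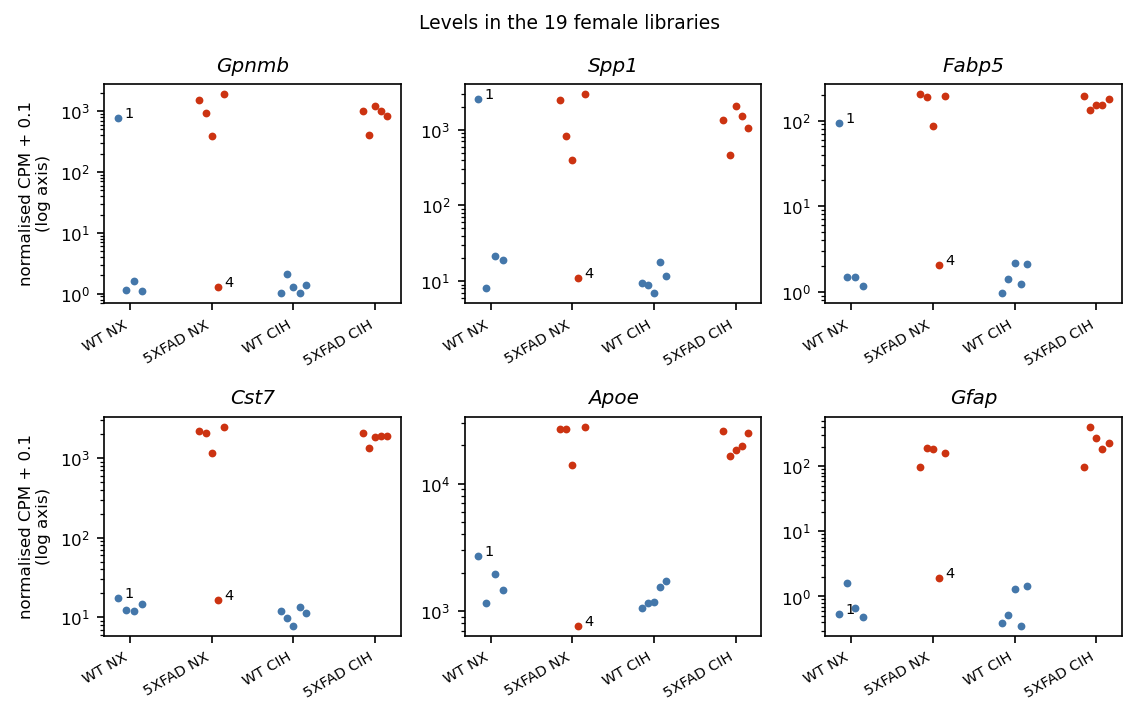
Normalised CPM plus 0.1 (log axis) of 6 genes in the 19 female libraries, with 1 point per library and replicates WT NX 1 and 5XFAD NX 4 numbered. In WT CIH and 5XFAD CIH the points form separate groups, while WT NX 1 lies near the 5XFAD libraries for Gpnmb, Spp1 and Fabp5, and 5XFAD NX 4 lies near the WT libraries.

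In males under CIH, which were younger, had a shorter exposure and were counted in another table, 12885 of the genes could be matched by symbol. The 2 values are set side by side without a test. Gpnmb had a log2FC of 9.48 in females and 9.36 in males, Cst7 of 7.39 and 8.20, Apoe of 4.00 and 4.39, and Ptger3 of −2.95 and −2.88. The medians of the DAM secreted factors were 2.67 and 2.49. Those of complex I were 0.55 and 1.19, of complexes II to V 0.73 and 1.48, and of cytosolic ribosomal proteins 1.30 and 2.00. Crybb1 had −2.07 in females and −0.74 in males, and Lyve1 −1.78 and −0.51. Sex, age and length of exposure cannot be told apart in these values.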

How the data were processed

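RNA of CD11b-selected microglia was sequenced by the study as paired-end mRNA libraries on an Illumina NovaSeq 6000. Each of the 10 libraries was treated as a separate sample, as the titles number them. The authors deposited raw counts per gene as whole numbers, and FPKM values, which are those counts divided by gene length and library total. The submitters' processing notes name HISAT2 and GRCm38/mm10, and the counting tool and strand setting are not given in the sources used here. The labels' oxygen level and hours per day were printed, and the study's methods state other values for both. The female table gives symbols only.

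After the filter (CPM over 1 in 3 or more libraries), genes were tested with the quasi-likelihood F test of edgeR 4.0.16 under R 4.3.3, with TMM factors and Benjamini-Hochberg FDR. The study states edgeR, this filter and the thresholds, and names neither the test within edgeR nor the scaling. CPM in the text are TMM-normalised, SD are between libraries, and list levels are means of log2 CPM (prior count 1). SE are the absolute log2FC divided by the square root of edgeR's F statistic, which draws on all genes for its dispersions. The interaction was fitted over the 19 female libraries. Genes with at most 3 counts in every WT CIH library were given a ratio of counts with an exact 95% interval, which covers counting error only, and setting them to their bound changes no list median. The scripts were tested on simulated data.

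The members and the gene lists were chosen with earlier results of these data known, so no list was tested as a whole and lists are described by counts and medians. Some lists share members, so their counts are not independent of each other. Named genes were the 6 largest log2FC and the 6 largest CPM differences in each direction (DEGs; for log2FC also without overlap and with a group mean of at least 5 CPM; no predicted models), the top 3 DEGs by size and the highest mean FPKM of each list, and the microglia markers. Other list members were named after their values were seen. Gene and promoter positions came from RefSeq on GRCm38.p6, matched by symbol, for 11226 of 14911 genes in the case of promoters. Alternatives were DESeq2 1.42.0, the likelihood ratio test, library size scaling, other filters and FDR limits, all 4 female groups, the replicate block, limma 3.58.1 on log2(FPKM + 1) and log2(FPKM + 0.1), removal of the length trend, and each library left out. Leaving out F WT NX 1 was chosen after seeing the data. Transgene transcripts and some single genes are not reported here.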

Additional observations from a re-analysis of the deposited data

Results flagged for a closer look

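In each group of 5 libraries, the gap between the highest or lowest library and its neighbour was divided by the group's range and compared with Dixon's limit. Of 408 such groups (named genes and the list levels of both genotypes), 25 passed it, and chance passes about 1 in 20. None of these values was tested further.

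Several belonged to 5XFAD CIH 5, which was highest for Cd74 (2570 CPM against 756 to 1160 in the other 4, ratio 0.779), H2-Aa (673 against 185 to 296, 0.771), H2-D1 (3090 against 1910 to 2210, 0.744), the level of the MHC class II list (6.63 against 5.91 to 6.04, 0.825) and the oxidase Cybb (274 against 147 to 159, 0.904). 5XFAD CIH 2 was lowest for Ch25h (71.4 against 113 to 120, 0.843), Cxcl14 (15.6 against 25 to 27.5, 0.784) and the level of the DAM secreted list (6.06 against 6.49 to 6.59, 0.819), and highest for P2ry12 (1940 against 1560 to 1630, 0.814). 5XFAD CIH 3 was highest for Meg3 (14.4 against 2.54 to 5.05, 0.789) and Rxrg (42.3 against 19.6 to 24.6, 0.782). 5XFAD CIH 4 was highest for Ube2c (4.96 against 2.97 to 3.54, 0.711), and 5XFAD CIH 1 was lowest for the immediate early list (5.7 against 6.65 to 6.95, 0.757).

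Among the WT CIH libraries, the first was highest for the level of the interferon list (4.79 against 3.86 to 4, 0.857), H2-Q6 (3.46 against 0.568 to 1.03, 0.841), Slc2a6 (6.36 against 3.81 to 4.47, 0.74) and Yipf7, where it held the only count (0.0568 against 0, ratio 1). WT CIH 3 was highest for Mbp (115 against 42.2 to 53.1, 0.851), Zfp36 (663 against 385 to 448, 0.774), Zfp618 (1.09 against 0.227 to 0.362, 0.844) and the immediate early list (7.16 against 5.86 to 6.18, 0.758), and lowest for the oxidase assembly gene Cox7a2l (80.2 against 98.1 to 103, 0.784). WT CIH 4 was highest for Aldoa (326 against 262 to 277, 0.76) and Cx3cr1 (6240 against 5590 to 5700, 0.824), and WT CIH 2 was lowest for the MHC class II list (5.21 against 5.38 to 5.43, 0.781).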

How the results depend on the processing

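The count of higher DEGs (1317) stayed within 1.5 times of that value except with the FDR alone (3906) and with limma on log2(FPKM + 1) (616). The count of lower DEGs (615) moved further with library size scaling (995), the FDR alone (3833) and limma on log2(FPKM + 1) (404). DESeq2 gave 1342 and 615. Without single libraries the counts ranged from 1255 to 1356 and from 552 to 715. Of the 160 genes that the naming rule picked, 130 were DEGs, 122 of which kept their call whichever library was left out and 99 under every alternative, and none of those past the FDR changed direction. Library size scaling, limma on log2(FPKM + 1) and limma on log2(FPKM + 0.1) turned the medians of 6 lists: cytokines and inflammasome to −0.01867, −0.001388 and −0.0006283, the proteasome to −0.0266, −0.02581 and −0.02634, mitochondrial ribosomal proteins to −0.06836, −0.06762 and −0.07272, mitochondrial carriers to −0.1249, −0.08965 and −0.1212, immediate early genes to −0.07691, −0.01312 and −0.01893, and solute carriers of the plasma membrane to −0.1633, −0.1259 and −0.1623. Both limma settings turned that of neuronal markers (−0.005601 and −0.02159), and removal of the trend on gene length that of transcription factors (0.008939). With library size scaling the medians of all 47 lists were lower, by 0.176 to 0.20. Library size scaling and both limma settings gave a lower median of all genes than TMM (−0.2106, −0.1441 and −0.1963 against −0.0184), and removal of the trend on gene length a higher one (−0.004215). The interaction of genotype and CIH had 0 calls under each alternative run on it, with 394 to 2680 genes at an unadjusted p under 0.05.

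WT CIH and 5XFAD CIH libraries share replicate numbers. Same-numbered libraries deviated from their group means with correlations of 0.106, −0.167, 0.202, −0.179 and −0.118. These values show no common pairing by number and cannot exclude one. With the replicate number as a block, 1329 genes were higher and 633 were lower, and the interaction had 0 calls. Depth limits the values under about 1 CPM, and library size, RNA composition and genotype cannot be told apart where TMM factors differ between all libraries of the groups (1.046 to 1.087 in WT CIH, 0.8854 to 0.972 in 5XFAD CIH).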

Other observations

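A few gene families, some with members that are also in the lists (such as Clec7a), were chosen after their values were seen. They are given as descriptions, with no test of a family. Over all genes tested, 8.83% were higher and 4.12% were lower DEGs. Among 42 tested potassium channel genes (symbols beginning Kcn), 9 were higher DEGs and 5 were lower DEGs, with a median log2FC of 0.28. The leak channel Kcnk9 had 0.976 ± 0.218 CPM in WT CIH and 65.7 ± 21.0 CPM in 5XFAD CIH (SD, n = 5 each, log2FC 6.07), Kcnk3 had 0.214 ± 0.184 and 8.39 ± 3.11 CPM (5.20), and the inward rectifier Kcnj2 had 81.0 ± 9.43 and 395.0 ± 45.8 CPM (2.29). Kcnk12 (−1.55) and Kcnd1 (−1.41) fell, each without overlap.

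Of 15 elongation factor genes and relatives tested (symbols beginning Eef1 or Eef2), 6 were higher DEGs and 1 was a lower DEG, with a median log2FC of 0.62. The higher DEGs included the pseudogenes Eef2-ps2 and Eef1a1-ps1, whose reads may be shared with Eef2 and Eef1a1. Eef2 had 948 ± 56.4 CPM in WT CIH and 2225 ± 286 CPM in 5XFAD CIH (log2FC 1.23), Eef1b2 had 1.25 and Eef1g 1.22, while Eef2k, the kinase that inhibits Eef2, fell from 269 ± 13.9 to 130.3 ± 19.2 CPM (log2FC −1.04). Among kinesins, 6 of 32 tested were higher DEGs, and Kif1a, a vesicle motor best known in neurons, had 4.76 ± 2.78 and 64.1 ± 6.51 CPM (log2FC 3.75).

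Of 17 C-type lectin genes tested, 3 were higher DEGs and 7 were lower DEGs (median −0.53). Clec7a rose, whereas Clec4a2 (log2FC −1.74), Clec4a3 (−1.45) and Clec4a1 (−1.30), receptors of a related cluster, fell without overlap. The Gimap GTPases gave 4 lower DEGs of 7 tested, with Gimap1 at 21.5 ± 1.15 and 8.66 ± 0.979 CPM (log2FC −1.31) and Gimap6 at −1.45.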
